A study of Rattus norvegicus with 6 samples.

Results

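The secreted muscle peptides described here are 8 genes, Ostn, Fndc5, Il15, Il6, Fgf21, Metrnl, Lif and Bdnf, which were chosen by name from the 26406 genes of the table and each matched 1 row. Gastrocnemius, a calf muscle of mixed fiber types, was taken from 6 male Sprague Dawley rats (strain Crl:SD), 3 infused with vehicle (rats 3, 9 and 11, 356 to 382 g) and 3 infused with olanzapine (rats 4, 10 and 12, 366 to 400 g), and its mRNA was sequenced. Olanzapine is a second generation antipsychotic with metabolic side effects, and the comparison asked which muscle transcripts differed after an infusion of 24 h. A loading dose of 1 mg per 100 g of body weight over 0.5 h was followed by 0.04 mg per 100 g each hour during the remaining 23.5 h. Vehicle was infused at a matched rate and volume. All rats carried a jugular and a carotid catheter, had been kept on standard chow and were under isoflurane when the muscle was removed. Their age is not given in the sources used here. Each value comes from the mixed tissue of 1 animal, so fewer cells of a type and less RNA per cell cannot be told apart.

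Skeletal muscle releases peptides, often called myokines, which act on the fiber itself or reach other organs through the blood. Several of them are released by contracting muscle, and others by muscle under metabolic stress. Ostn encodes osteocrin (musclin), a peptide that resembles the natriuretic peptides and binds their clearance receptor. Fndc5 encodes a membrane protein from which irisin is cut. Il15, Il6 and Lif are cytokines, Fgf21 and Metrnl (meteorin-like) are hormone-like factors of energy metabolism, and Bdnf is a neurotrophin.

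Levels were given as FPKM, fragments scaled to transcript length and to the mapped fragments of the library, which can be compared between genes since they are per length. Genes averaging 1 FPKM or more across all 6 animals, 10285 in number, were tested with limma on log2(FPKM + 1), with Benjamini-Hochberg adjustment over all of them. Of the 8 peptide genes 4 entered this test and 4 lay under the limit. Fndc5 was 2.19-fold lower in the olanzapine rats, the only one of the 4 tested genes that passed an adjusted p of 0.05. Ostn and Il15 had higher means in the olanzapine rats and did not pass, and Metrnl overlapped between the groups. Lif, Bdnf and Fgf21 were near the lowest values the libraries could give and Il6 was listed at 0 in every rat. Over all genes tested 0.506% passed in either direction, 0.457% lower and 0.0486% higher, so that 1 of 4 is above the background but is a single gene. The groups of 2 of the 4 tested genes did not overlap, beside 19.7% of all genes tested. The median log2 fold change over all genes tested was -0.11, and 0.0079 after scaling by median-ratio size factors.

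**Figure D1:**
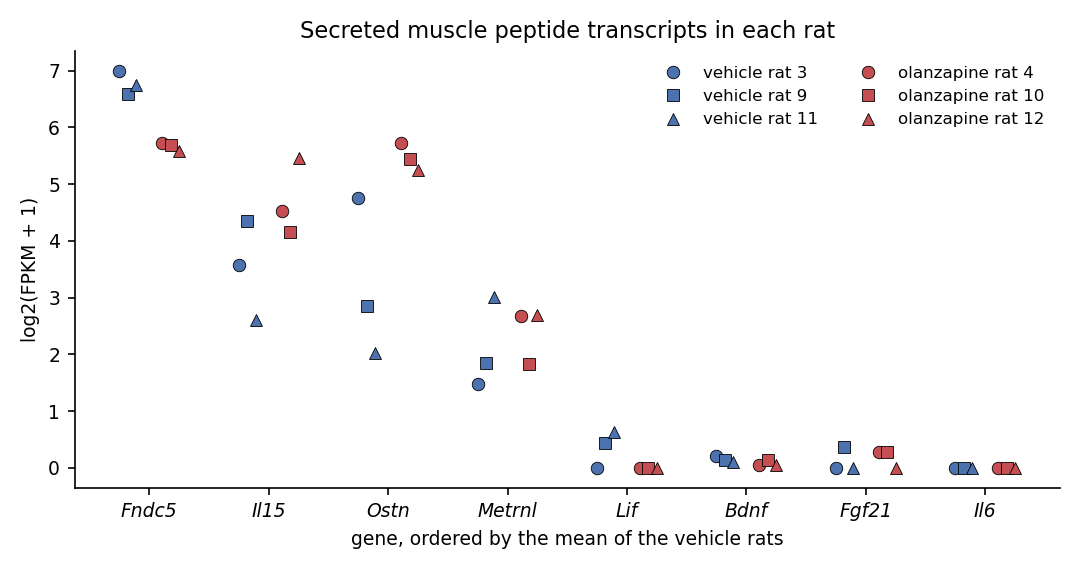
Level of each of the 8 transcripts in each rat as log2(FPKM + 1), with vehicle rats in blue and olanzapine rats in red. Fndc5 was the highest in the vehicle rats, the 4 genes on the left had a mean of at least 1 FPKM, and the 4 on the right lay close to 0 in every rat.

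The promoters of the gene that passed and of Il15 are shown. Il15 was taken as the other peptide gene with an unadjusted limma p under 0.05 and an entry in the promoter table. Ostn has no such entry. Of the 8 genes 6 have an entry in the RefSeq promoter table of the rat assembly GRCr8, which holds 250 bases before and 50 bases after an annotated start. Capitals mark the letters GGGCGG (the GC box, bound by Sp1) and AGGTCA (the core element of PPAR and estrogen-related receptors) on either strand, the only kinds of match that are marked. Fndc5 lies at chr5:146767809-146768108 on the plus strand and Il15 at chr19:42544456-42544755 on the plus strand. No motif here was shown to be used.
Fndc5: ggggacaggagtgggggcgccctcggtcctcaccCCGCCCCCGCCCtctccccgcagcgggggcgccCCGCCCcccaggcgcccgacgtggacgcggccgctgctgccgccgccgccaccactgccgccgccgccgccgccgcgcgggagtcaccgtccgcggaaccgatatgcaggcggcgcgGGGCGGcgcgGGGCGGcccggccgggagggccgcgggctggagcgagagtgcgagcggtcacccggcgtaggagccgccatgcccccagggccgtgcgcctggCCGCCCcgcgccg
Il15: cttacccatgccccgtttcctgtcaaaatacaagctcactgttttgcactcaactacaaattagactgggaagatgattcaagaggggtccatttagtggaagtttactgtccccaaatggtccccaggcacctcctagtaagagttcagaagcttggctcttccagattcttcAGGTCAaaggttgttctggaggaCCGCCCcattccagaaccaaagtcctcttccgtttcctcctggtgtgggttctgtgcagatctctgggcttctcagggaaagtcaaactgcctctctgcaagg
Fndc5 held 6 matches to the GC box and none to the core element, to the TATA box, to the CCAAT box or to the E-box (CANNTG), the letter pattern of myogenic factors. Its 300 bases were 84.0% G and C, and 99.9% of the 33469 promoters of the table were at or below that. Il15 held 1 GC box, 1 core element and 1 E-box, and was 49.3% G and C against a median of 51.7% over all promoters. The share of all promoters with a match was 33.1% for the GC box, 16.2% for the core element, 72.1% for the E-box, 14.2% for the TATA box (TATAAA) and 37.5% for the CCAAT box. Both strands were searched, and overlapping matches were counted separately.

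Fndc5 lies on chromosome 5 of Rn5 from 151057692 to 151062818, a span of 5127 bases. It measured 127, 95.3 and 106 FPKM in vehicle rats 3, 9 and 11 and 52.0, 50.6 and 47.0 FPKM in olanzapine rats 4, 10 and 12. The groups were far apart, and the 3 olanzapine rats were close to each other. The means were 109 ± 16.1 FPKM (SD, n = 3) and 49.9 ± 2.55 FPKM (SD, n = 3), or 2.19-fold lower with olanzapine, and the groups of 14.6% of all genes tested likewise did not overlap with the olanzapine rats lower. This was a log2 fold change of -1.11 (standard error 0.17, 95% interval -1.498 to -0.72, limma adjusted p = 0.0380), the 38th smallest p of the 10285 genes. Its residual SD between rats of a group was 0.16 on the log2 scale, and 14.1% of the tested genes were as steady or steadier. The exact permutation test on the FPKM, both sides, gave p = 0.1, the smallest that 3 rats against 3 allow. With median-ratio size factors the log2 fold change was -0.96 (adjusted p = 0.0764), with no filter on low values the adjusted p was 0.0581 and with no trend in the variance it was 0.0517. With 1 rat left out, the log2 fold change lay between -1.20 and -0.999 and the adjusted p between 0.0775 and 0.184, so that the call rests on all 6 rats while the direction did not change.

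**Figure D2:**
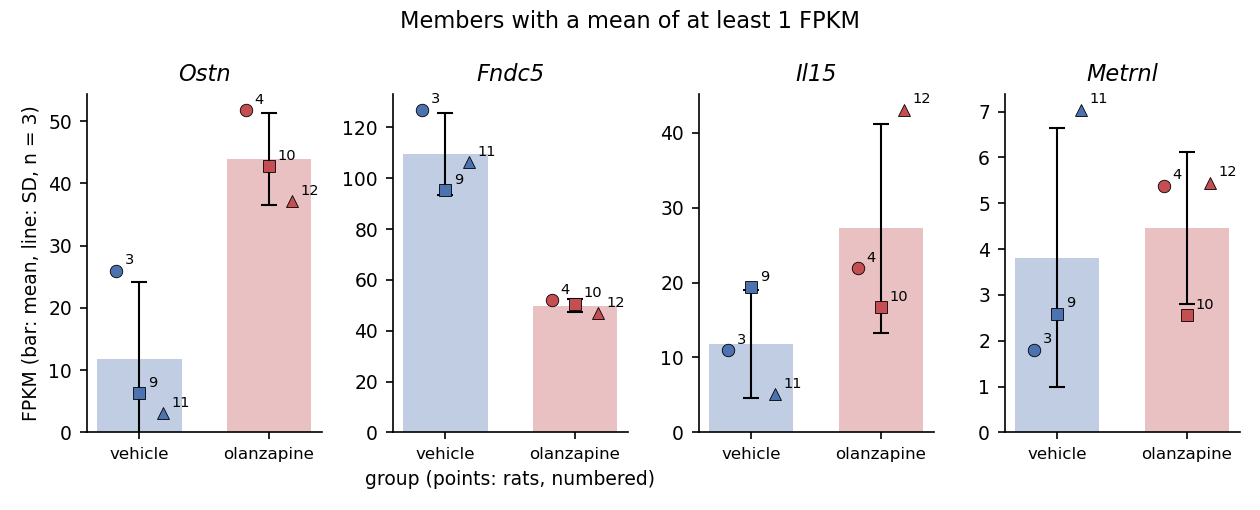
FPKM of the 4 tested peptide genes by group, with bars for the mean, black lines for the SD (n = 3, cut at 0 for Ostn in the vehicle rats) and numbered points for the rats. Fndc5 and Ostn separate the groups, in opposite directions, whereas Il15 and Metrnl overlap.

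Ostn lies on chromosome 11 of Rn5 from 83846850 to 83872970. It measured 26.0, 6.25 and 3.08 FPKM in vehicle rats 3, 9 and 11 and 51.8, 42.7 and 37.2 FPKM in olanzapine rats 4, 10 and 12. The groups did not overlap, as in 5.12% of all genes tested with the olanzapine rats higher, but vehicle rat 3 stood well above the other vehicle rats. The means differed 3.73-fold and the log2 fold change was 2.26 (95% interval 0.94 to 3.58), which did not pass (limma adjusted p = 0.177, exact permutation p = 0.1 on both sides). Its residual SD was 1.00 on the log2 scale, higher than or equal to that of 97.9% of the tested genes. Without vehicle rat 3 the log2 fold change was 3.03 (adjusted p = 0.0122), and without vehicle rat 11 it was 1.67 (adjusted p = 0.466). Vehicle rat 3 also had the lowest sum of red blood cell markers, 1340 FPKM against up to 10259 FPKM in the vehicle rats, the lowest sum of fibroblast markers, 125 FPKM against up to 1041 FPKM, the lowest level of Myh4, the IIb myosin heavy chain, at 425 FPKM, and the highest sum of slow fiber genes, 34889 FPKM. Their part in the level of Ostn was not tested. The study, whose test takes FPKM as counts, reported Ostn as significantly raised by olanzapine. It also found a rise of similar proportion by quantitative PCR on the same RNA.

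The level of Ostn relative to that of Fndc5 in the same rat does not depend on how the rats are scaled. This ratio was chosen after both genes had been seen not to overlap in opposite directions, so that its separation of the groups follows from them and is given as a description. The ratio of Ostn to Fndc5 was 0.205, 0.0656 and 0.0290 in vehicle rats 3, 9 and 11 and 0.997, 0.844 and 0.790 in olanzapine rats 4, 10 and 12. Ostn lay below Fndc5 in all 6 rats, close to it in the olanzapine rats and far below it in the vehicle rats. Of the summed FPKM of the 8 genes, Fndc5 took 80.1% ± 6.02 (SD, n = 3) in the vehicle rats and 39.9% ± 4.71 in the olanzapine rats, Ostn 7.74% ± 6.97 and 35.1% ± 6.20, and Il15 8.80% ± 6.03 and 21.3% ± 9.69. The sum itself was 137 ± 24.7 FPKM under vehicle and 126 ± 11.1 FPKM under olanzapine, which overlapped (exact permutation p = 0.6, both sides).

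Il15 (listed as IL15) supports natural killer and memory T cells and is made by muscle fibers. It lies on chromosome 19 of Rn5 from 34532033 to 34598725. It measured 11.0, 19.4 and 5.08 FPKM in vehicle rats 3, 9 and 11 and 21.9, 16.8 and 43.1 FPKM in olanzapine rats 4, 10 and 12. Olanzapine rat 10 lay below vehicle rat 9, and olanzapine rat 12 was far above the other 5 rats. The means were 11.8 ± 7.203 and 27.3 ± 14.0 FPKM (SD, n = 3 each), a log2 fold change of 1.20 with a 95% interval of 0.15 to 2.25 (limma unadjusted p = 0.0302, adjusted p = 0.334, exact permutation p = 0.2). It was 0.82 without olanzapine rat 12 and 0.74 without vehicle rat 11, the lowest vehicle rat. It was 1.62 without vehicle rat 9, and no fit with 1 rat left out passed. The study, by its own test on FPKM taken as counts, listed Il15 among the genes significantly raised by olanzapine.

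Metrnl lies on chromosome 10 of Rn5 from 110473810 to 110487800. Its levels were 1.805, 2.59 and 7.04 FPKM in vehicle rats 3, 9 and 11 and 5.39, 2.56 and 5.45 FPKM in olanzapine rats 4, 10 and 12. The highest rat was a vehicle rat, and the groups overlapped. The log2 fold change was 0.28 with a 95% interval of -0.63 to 1.20 (limma adjusted p = 0.765), and it was -0.028 without vehicle rat 3. The interval leaves room for a difference of either sign. Its residual SD of 0.66 was higher than or equal to that of 95.02% of the tested genes.

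**Figure D3:**
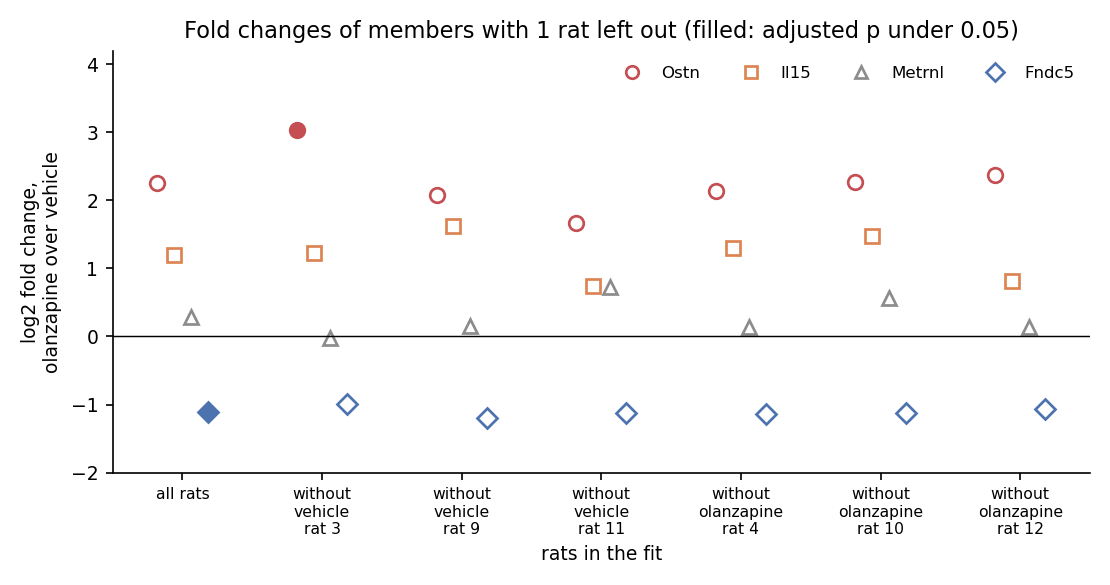
Log2 fold change of Ostn, Il15, Metrnl and Fndc5 with all rats and with 1 rat left out in turn, where filled symbols have an adjusted p under 0.05 over all genes. Fndc5 stays between -1.20 and -0.999 without passing once a rat is left out, and Ostn passes only without vehicle rat 3, at 3.03.

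The 4 genes under the limit were described without a place in the fit over all genes. FPKM keeps no read counts, but the steps between low values gave relative depths of 0.669 for vehicle rat 9 and 0.443 for vehicle rat 11 when vehicle rat 3 is set to 1. For olanzapine rats 4, 10 and 12 these were 0.922, 0.903 and 0.743. Multiplied by this depth, the values of Bdnf, Fgf21 and Lif fell on whole multiples of 1 step to within 0.034 of a step. A step stands for 1 read, or for the same small number of reads in every rat. Bdnf, a neurotrophin that acts through Ntrk2, lies on chromosome 3 and came to 5, 2 and 1 steps in vehicle rats 3, 9 and 11 and to 1, 3 and 1 steps in olanzapine rats 4, 10 and 12. Its FPKM ran from 0.0724 to 0.159 in the vehicle rats and from 0.0333 to 0.106 in the olanzapine rats and overlapped (exact permutation p = 0.3, both sides). Fgf21, a hormone of fasting and stress on chromosome 1, came to 1 step in vehicle rat 9 and in olanzapine rats 4 and 10 and was listed at 0 in the other 3 rats (exact permutation p = 1). Lif, a gp130 cytokine on chromosome 14, was at 0.364 FPKM in vehicle rat 9 and 0.543 FPKM in vehicle rat 11, 1 step each, and was listed at 0 in the other 4 rats, among them all olanzapine rats (exact permutation p = 0.4). With no filter on low values limma gave an adjusted p of 0.718 for Bdnf, 0.868 for Fgf21 and 0.483 for Lif. A difference between the groups was not detectable at this depth for any of the 3.

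Il6, the cytokine that contracting muscle releases, on chromosome 4, was listed at 0 in all 6 rats. A 0 in this table need not mean an absent transcript, since Col1a2, the partner chain of type I collagen, was also listed at 0 in all 6 rats while Col1a1 was at 46.8 to 559 FPKM. No fold change was given for Il6.

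By level, the order of the vehicle rats was Fndc5, Il15, Ostn, Metrnl, Lif, Bdnf and Fgf21 by mean FPKM. The lowest Fndc5 value of a vehicle rat, 95.3 FPKM, lay above the highest of any other peptide gene, 26.0 FPKM of Ostn, while Il15, Ostn and Metrnl overlapped their neighbors in this order. In the olanzapine rats the order was Fndc5, Ostn, Il15 and Metrnl, where Fndc5 at 47.0 to 52.0 FPKM and Ostn at 37.2 to 51.8 FPKM overlapped, as did Ostn and Il15. Metrnl at 2.56 to 5.45 FPKM lay below Il15 at 16.8 to 43.1 FPKM without overlap. By the mean over all rats, Fndc5 ranked 749th, Ostn 1913th, Il15 2526th and Metrnl 6368th of the 16681 genes above 0 in at least 1 rat. The 8 genes lie on 8 different chromosomes. Across the 6 rats the Pearson correlation of log2(FPKM + 1) was 0.65 between Ostn and Il15, -0.69 between Ostn and Fndc5 and -0.73 between Fndc5 and Il15, values that hold the difference between the groups and are given as a description (n = 6).

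Receptors of these peptides were measured in the same muscle, and none of the 11 receptors tested passed. Their median log2 fold change was -0.12, beside -0.11 over all genes tested. Of the 11, 1 was higher and 2 were lower with olanzapine without overlap, beside 5.12% and 14.6% of all genes tested. Npr3, the clearance receptor that osteocrin binds, averaged 2.77 ± 0.805 FPKM (SD, n = 3) under vehicle and 2.48 ± 0.671 FPKM under olanzapine (log2 fold change -0.12, 95% interval -0.65 to 0.42). Npr1, the receptor of atrial natriuretic peptide, had a log2 fold change of -0.14. Npr2, the receptor of C-type natriuretic peptide, measured 5.63, 4.98 and 7.75 FPKM in vehicle rats 3, 9 and 11 and 3.51, 1.82 and 1.74 FPKM in olanzapine rats 4, 10 and 12. It did not overlap between the groups but missed the threshold (log2 fold change -1.11, limma adjusted p = 0.137). Among the natriuretic peptides that share these receptors, Nppa was listed at 0 in all rats, Nppb above 0 only in vehicle rat 11 at 1.02 FPKM, and Nppc at 0.596 to 0.806 FPKM under vehicle and 0 to 0.733 FPKM under olanzapine.

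Itgav and Itgb5, integrin chains to which irisin binds, had log2 fold changes of -0.53 and 0.24, with 95% intervals of -1.07 to 0.014 and -0.18 to 0.66. The groups of Itgav did not overlap, with the olanzapine rats lower. Of the IL-15 receptor, the shared chain Il2rg had -0.31, and Il15ra and Il2rb lay under 1 FPKM on average. Il6st, the gp130 chain shared by the IL-6 and LIF receptors, averaged 14.6 ± 2.05 FPKM under vehicle and 15.3 ± 7.28 FPKM under olanzapine (log2 fold change -0.012, 95% interval -0.68 to 0.65), Lifr had -0.014 and Il6r 0.13. Fgfr1, through which FGF21 signals, had -0.48 (95% interval -0.996 to 0.034), and its co-receptor Klb was listed above 0 only in olanzapine rat 4, at 0.0753 FPKM. Sort1, sortilin, a receptor of proBDNF that also moves between compartments, measured 7.89, 10.5 and 10.1 FPKM in vehicle rats 3, 9 and 11 and 19.2, 13.5 and 13.7 FPKM in olanzapine rats 4, 10 and 12. Its groups did not overlap, and its log2 fold change of 0.64 missed the threshold (adjusted p = 0.243). Ntrk2, Ngfr and Kit, reported as a receptor of meteorin-like, lay under 1 FPKM on average.

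**Figure D4:**
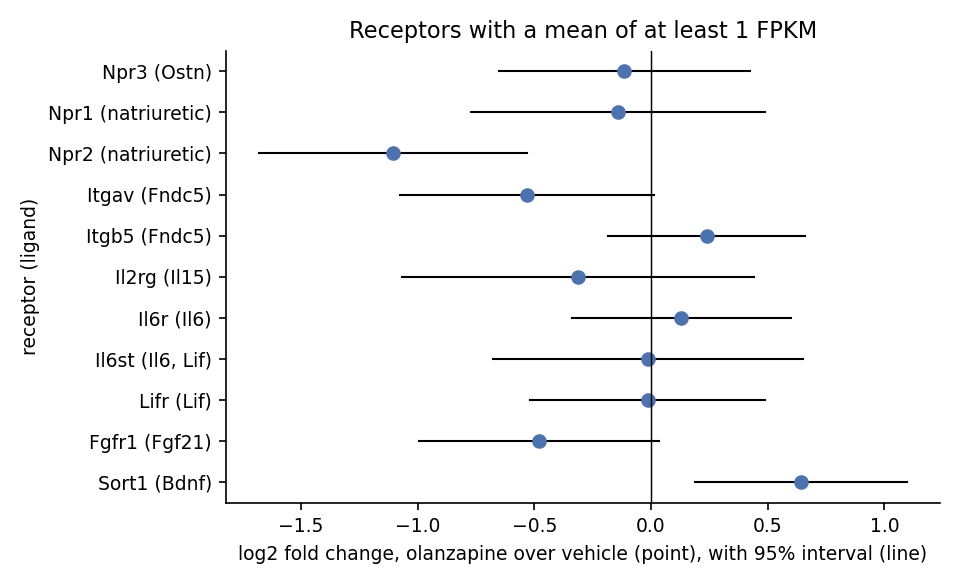
Log2 fold change of the 11 receptors averaging 1 FPKM or more (points) with 95% intervals that are not adjusted for the number of genes (lines), and the ligand in brackets. The intervals of Npr2 and Sort1 leave out 0, below and above it, and neither passed the test over all genes.

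Of 14 transcription regulators that are tied in rodents to Fndc5, Ostn or Bdnf, 13 were tested, of which 1 fell and 12 did not pass, with a median log2 fold change of -0.12. Over all genes tested 0.457% fell. The gene that fell was Myog, myogenin, a factor of muscle differentiation and denervation, at 29.3, 22.5 and 23.3 FPKM in vehicle rats 3, 9 and 11 and at 10.5, 12.4 and 11.7 FPKM in olanzapine rats 4, 10 and 12 (log2 fold change -1.05, limma adjusted p = 0.0460). Its call was lost in each of the 6 fits with 1 rat left out, with no filter, under median-ratio size factors and without the variance trend. Ppargc1a, the coactivator PGC-1 alpha that raises Fndc5 in mouse muscle, averaged 4.59 ± 1.06 FPKM under vehicle and 4.15 ± 0.666 FPKM under olanzapine (log2 fold change -0.11, 95% interval -0.58 to 0.36), and it was named after its values had been seen. Ppargc1b had a log2 fold change of -0.44. Esrrg, an estrogen-related receptor of oxidative muscle, had no overlap between the groups, a log2 fold change of -1.18 and an adjusted p of 0.0989, while its relative Esrra had 0.15 and Mef2c, a factor of slow fiber genes, -0.023. Of the 13 tested, 2 were lower without overlap, Myog and Esrrg, a share close to the 14.6% of all genes tested.

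Of 21 signal transducers and early targets of IL-6 and LIF, 20 were tested and none passed, with a median log2 fold change of -0.24. With a stricter filter on low values, after genes listed at 0 in a rat were dropped or after short loci were dropped, 1 gene of this list was called. Socs3 and Socs2, feedback inhibitors of cytokine receptors, had log2 fold changes of -1.15 and -1.12 without overlap (adjusted p = 0.243 and 0.215). Of the 20 tested, 4 were lower and 2 higher with olanzapine without overlap, beside 14.6% and 5.12% of all genes tested. Cebpb and Cebpd, the most abundant of this list, overlapped between the groups. Of 16 genes of the integrated stress response and of PPAR control, with which Fgf21 is regulated, 13 were tested and none passed, with a median of -0.17. Atf4, the central factor of that response, had 0.13. Pdk4, a PPAR target, had -0.34 with a 95% interval of -1.78 to 1.09. Its groups overlapped, and its mean was 89.4 FPKM under vehicle and 91.7 FPKM under olanzapine. Ddit3 (CHOP), Ppara and the chaperone Hspa5 had log2 fold changes of -0.73, -0.86 and -0.66, without overlap (adjusted p = 0.243, 0.286 and 0.286). These were the only 3 of the 13 tested without overlap, beside 14.6% of all genes tested with the olanzapine rats lower. Of 15 proteases that cut secreted precursors, 8 were tested and none passed, with a median of -0.37. Furin, a convertase that cuts such precursors and named after its values had been seen, averaged 13.4 ± 0.838 FPKM under vehicle and 14.4 ± 0.693 FPKM under olanzapine. Pcsk6, Adam17 and Pcsk7 had log2 fold changes of -0.73, -0.44 and -0.79 without overlap, and the signal peptidase chains Sec11a and Sec11c had -0.16 and 0.43. Of the 8 tested, Pcsk6, Adam17 and Pcsk7 did not overlap, all lower with olanzapine, beside 14.6% of all genes tested. Pcsk7 was at 3.09 and 2.81 FPKM in olanzapine rats 4 and 10, beside 3.16 to 3.52 FPKM under vehicle. It was listed at 0 in olanzapine rat 12, and its 95% interval was -1.89 to 0.32 (limma adjusted p = 0.495).

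Of 40 other factors that muscle secretes, 25 were tested and 0 passed limma at an adjusted p of 0.05. Without overlap, 6 of the 25 were lower and 0 higher with olanzapine, beside 14.6% and 5.12% of all genes tested. Over all 10285 genes tested, 13.2% had an unadjusted limma p under 0.05 in either direction, and 972 genes were lower. Of the 25, 3 had an unadjusted p under 0.05, all lower with olanzapine, a share in either direction no higher than over all genes. These were Ntf4, a neurotrophin, at 3.27 ± 0.583 FPKM (SD, n = 3) under vehicle and 1.39 ± 0.261 FPKM under olanzapine (log2 fold change -0.83, adjusted p = 0.158), the growth factor Fgf1 (log2 fold change -1.28, adjusted p = 0.247) and the insulin-like growth factor Igf2 (log2 fold change -0.41, adjusted p = 0.377). The median over the 25 was -0.22. Sparc and Dcn, matrix proteins that fibroblasts also make and the most abundant of this list, had log2 fold changes of -0.23 and -0.046.

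Slow fiber genes fell in the same olanzapine rats. Of 12 slow fiber genes 11 fell and 1 did not pass, and their summed level was 19571 to 34889 FPKM under vehicle and 2978 to 7438 FPKM under olanzapine. Of 12 fast fiber genes none passed, with a median log2 fold change of 0.84, and their sum was 71905 to 94333 FPKM and 124118 to 166095 FPKM. Most genes of both lists were also picked by the study from the same animals, which makes their direction no independent evidence, and with 1 rat left out between 2 and 11 slow genes were called. The part of fiber type genes in the levels of Fndc5 and Ostn was not tested.

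Of 5 muscle markers 4 matched a row, and these (Acta1, Ckm, Des and Mb) were high in all rats, with a sum of 60908 to 82587 FPKM under vehicle and 65283 to 88179 FPKM under olanzapine. None of the tested markers of other cells passed, which were 3 of satellite cells, 7 of leukocytes, 6 of endothelium, 5 of fibroblasts, 5 of adipocytes, 4 of Schwann cells and 5 of red blood cells. The summed levels overlapped between the groups for each of these lists except that of satellite cells, at 9.99 to 10.4 FPKM under vehicle and 7.76 to 9.43 FPKM under olanzapine. The sums of leukocyte markers, which matter for the cytokines, were 48.0 to 88.0 FPKM and 67.2 to 98.4 FPKM, with the T cell and B cell markers Cd3e and Cd79a at or near 0. Adipocyte markers were 264 to 425 FPKM and 246 to 780 FPKM.

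The genes whose pattern over the 6 rats was most like that of a peptide gene were found by the Pearson correlation of log2(FPKM + 1), which with 6 points and 10285 genes comes close to 1 for some gene of any pattern. For Fndc5 they were Mettl21c, a lysine methyltransferase of muscle (r = 0.996), Tmem127 (r = 0.995) and Myh10, a nonmuscle myosin (r = 0.992), of which Mettl21c at 48.4 FPKM on average under vehicle and 11.8 FPKM under olanzapine fell (log2 fold change -1.94, limma adjusted p = 0.00424), as did Myh10. For Ostn they included Gstt1 (r = 0.988) and Atp6v1e1 (r = 0.986), neither of which passed. For Il15 they were Oas1a (r = 0.993), ENSRNOG00000031061 (r = 0.990) and Zfp111 (r = 0.983), and for Metrnl they included Soga2 (r = 0.981) and Rsad1 (r = 0.974), again with none of those named past the threshold.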

How the data were processed

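The authors made TruSeq RNA libraries, which do not mark strand, and sequenced them from a single end. TopHat 2.0.9 placed the reads on Rn5, and the authors deposited 1 FPKM for each Ensembl gene and rat, which Cufflinks 2.2.1 gave from reads with a unique position. Reads from a gene and an antisense partner cannot be told apart. The columns of group means, fold changes and significance marks in the deposited table were not used. The peptide genes and all lists were chosen with earlier results of these data known.

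From the FPKM, log2(FPKM + 1) was fitted with limma 3.58.1 (R 4.3.3) with a trend in the variance, without covariates, on 10285 genes averaging 1 FPKM or more. This replaces the count-based test of the study, since FPKM are not counts. The added 1 makes fold changes of low genes too small. Exact permutation tests over the 20 arrangements of the rats, unadjusted, were run for every listed gene with a row and for 5 sums, shares or ratios. They are given here only for peptide genes and for their sum, and 0.1 is the smallest p they can give. The rats are separate animals. Depth relative to vehicle rat 3 is the most common ratio of values over genes under 0.3 FPKM. Fits were tested on simulated data with known changes. Most genes with a true log2 fold change of 1 in either direction were missed there, so a gene that did not pass may still differ.

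Named were the 8 peptide genes, each tested receptor, and from each other list the 2 most abundant genes, the 3 with the smallest p and any that passed, except that genes of the fiber type and cell type marker lists were given mainly as sums. Sums over all listed genes of a list were used for these. For likeness the 3 genes with the highest correlation were taken. Some genes that this rule names are not reported here. Alternatives were a pseudocount of 0.1, other filters (none, 10 FPKM, no gene at 0, no locus under 200 bases), median-ratio size factors, a common total without the 50 most abundant genes, no variance trend, a Poisson likelihood ratio test on summed FPKM, and leaving out each rat.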

Additional observations from a re-analysis of the deposited data

How the results depend on the processing

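No paired analysis was possible because the groups share no replicate numbers and no source used here pairs the rats, although the rat numbers are consecutive across the groups (3 and 4, 9 and 10, 11 and 12), and whether these mark animals handled together was not tested. Of the 4 tested peptide genes 1 passed in the reported fit, Fndc5. None passed under median-ratio size factors (log2 fold change of Fndc5 -0.96), with no filter on low values or with no trend in the variance (-1.11 in both). The Poisson test, which has no term for the spread between rats, called 3 of them, Fndc5, Ostn (log2 fold change 1.82) and Il15 (1.13). Between 0 and 1 passed with 1 rat left out, where the log2 fold change of Fndc5 ran from -1.20 to -0.999, that of Ostn from 1.67 to 3.03, that of Il15 from 0.74 to 1.62 and that of Metrnl from -0.028 to 0.73, the last reversed without vehicle rat 3. In the other limma fits with all rats Ostn, Il15 and Metrnl kept their direction and did not pass, except that Metrnl has no value with a mean of at least 10 FPKM, a limit it lies under. Over all genes 5 were higher and 47 lower. The counts were 9 higher and 93 lower once genes listed at 0 in a rat were dropped, 9 and 74 once loci under 200 bases were dropped, 3 and 30 under median-ratio size factors, 9 and 18 with no filter, 404 and 411 by the Poisson test, and 11 higher with a mean of at least 10 FPKM. With 1 rat left out they ran from 2 to 6 higher and from 8 to 50 lower. The cause was not tested, except that leaving out a rat also lowers the number of samples. The 5 slow fiber genes called with median-ratio size factors and the 2 with no filter compare with 11 in the reported fit. Depth limits Bdnf, Fgf21 and Lif, which came to 13, 3 and 2 steps over all rats.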
